A study of Homo sapiens with 12 samples.

Results

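The lysyl oxidase family is a set of 5 genes, LOX, LOXL1, LOXL2, LOXL3 and LOXL4, taken by symbol from a table of read counts per gene in ARPE-19, a widely used cell line derived from human retinal pigment epithelium (RPE). All 5 symbols were found among the 60605 lines of the table, of which 40591 carried a symbol, and all 5 passed the filter on low counts that left 15179 genes tested. The family was proposed when the level of LOXL4 in GSTA4 against GFP libraries was already known, and the members were thus chosen by that measured value together with their shared symbol, so every member is described without a test in that comparison, as is LOXL4 in the other comparisons that use the GSTA4 libraries.

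Poly(A) RNA was sequenced from 4 groups of 3 libraries each. Stable ARPE-19 cells had expressed an open reading frame (ORF) for 4 days: GFP, a fluorescent protein, taken here as the control ORF; GSTA4, a glutathione S-transferase that conjugates lipid peroxidation products such as 4-hydroxynonenal; or OSK, the reprogramming factors OCT4 (gene POU5F1), SOX2 and KLF4. The WT group was named with no ORF. All 4 groups share the ARPE-19 background. Nothing in the labels tells separate cultures from repeat libraries of 1 culture, or a clone from a pool, so p-values measure only the spread between these libraries, and ORF and line cannot be told apart.

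Lysyl oxidases are copper-dependent amine oxidases that oxidise lysine and hydroxylysine side chains of collagens and elastin to reactive aldehydes, from which covalent crosslinks form. LOX and LOXL1 are secreted as proenzymes with a propeptide that BMP1 removes, whereas LOXL2, LOXL3 and LOXL4 carry scavenger receptor cysteine-rich domains ahead of a similar catalytic domain. In the eye the RPE rests on Bruch's membrane, a layered sheet of collagens and elastin, and LOXL1 is known for its part in elastic fibre upkeep and in exfoliation syndrome.

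Because LOX and LOXL4 had the widest ranges across the groups, the 250 bases before the RefSeq start of each are shown (GRCh38.p14, 5′ to 3′ on the gene's strand). LOX and LOXL4 differed from GFP in opposite directions in GSTA4 and in OSK, but were not opposite in OSK against WT. RefSeq promoter entries were matched for 4 of the 5 members. Capitals mark ACGTG, the core of hypoxia response elements, and GGGCGG, a GC box, each on either strand. The LOX window is chr5:122078260-122078509 and the LOXL4 window chr10:98268195-98268444, both on the minus strand.
LOX: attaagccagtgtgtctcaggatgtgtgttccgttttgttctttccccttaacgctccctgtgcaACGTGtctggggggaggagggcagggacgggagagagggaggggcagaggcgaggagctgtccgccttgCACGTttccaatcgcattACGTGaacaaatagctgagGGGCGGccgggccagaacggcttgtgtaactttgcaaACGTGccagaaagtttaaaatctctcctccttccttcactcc
LOXL4: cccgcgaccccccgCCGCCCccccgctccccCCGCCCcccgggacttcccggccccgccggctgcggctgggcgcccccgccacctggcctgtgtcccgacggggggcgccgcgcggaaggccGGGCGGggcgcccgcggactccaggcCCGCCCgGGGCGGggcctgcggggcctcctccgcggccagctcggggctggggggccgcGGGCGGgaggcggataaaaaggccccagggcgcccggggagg

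The LOX window held 4 ACGTG matches, at -185, -116, -98 and -42 from the start, and 1 GGGCGG match at -79. A CAGACA match at -182 overlapped the first of these. Of 35116 RefSeq promoter windows of this length, 18.5% held ACGTG at least once and 0.669% held it 4 or more times. The LOXL4 window held no ACGTG and 6 GGGCGG matches, at -236, -219, -127, -101, -94 and -42. GGGCGG occurred in 42.6% of the windows, and 6 or more times in 2.22%. On neither strand did the LOXL4 window hold the motif CACCC (found in 54.7% of all windows), the SMAD-type motif CAGACA (13.6%), the octamer motif ATTTGCAT (1.63%) or the TATA motif TATAAA (10.7%). The LOX window likewise held no CACCC, ATTTGCAT or TATAAA on either strand. The LOXL1 and LOXL3 windows had no match to any of the 6 motifs. Each RefSeq start used lay inside the gene span given in the next paragraph. The coordinate difference from the GENCODE gene start was 473 bases for LOXL1, on the plus strand. For the minus-strand genes it was -1748 for LOXL3, -101 for LOX and -56 for LOXL4. LOX had 3 listed starts and LOXL3 had 2, of which the most upstream was used. These matches describe letters in the reference and were not tied to binding in these cells.

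In the GENCODE 29 annotation of GRCh38, LOX spans chr5:122063195-122078360 on the minus strand with 5547 exonic bases, and LOXL4 spans chr10:98247690-98268250 on the minus strand with 3653. LOXL1 lies at chr15:73925989-73952137 on the plus strand (3637 exonic bases), LOXL2 at chr8:23297189-23425328 on the minus strand (5707), and LOXL3 at chr2:74532414-74555690 on the minus strand (4363). The longest identical run between the transcripts of any pair of members was 26 bases, between LOXL3 and LOXL4. Exons of neighbouring genes covered 14.3% of the exonic bases of LOXL3 (HTRA2), 9.21% of those of LOXL1 (LOXL1-AS1, on the other strand), 4.16% of LOXL4, 3.12% of LOXL2 and 2.49% of LOX at most for any 1 neighbour. Whether counting used strand is not given in the sources used here, so reads in those stretches cannot be assigned to 1 gene with certainty.

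Named genes drew 12526826 to 16940870 reads per library, so that a floor of 3 reads stood at 0.177 to 0.228 CPM, the read count scaled to library size with TMM factors. The ORF genes stood where their labels put them: GSTA4 averaged 415.8 CPM in its group and 5.47 to 20.19 elsewhere, and POU5F1, SOX2 and KLF4 averaged 779.1, 628.1 and 927.8 CPM in OSK and at most 1.57 elsewhere. Replicate 1 of WT stood apart from WT replicates 2 and 3, with a chi-square per degree of freedom of 15 and 17.4 against 2.54 between the other two and 2.62 to 7.12 within other groups. In GFP replicate 1, 27349 named genes had at least 1 read, while the range elsewhere was 19488 to 22073. RPE identity was partial: MITF, OTX2, PMEL, KRT8 and KRT18 were expressed, while RPE65, the visual cycle isomerase, had at most 10 reads in any library.

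LOX, the founding member and the main collagen and elastin crosslinker, was the most variable of the abundant members. It measured 94.6, 144 and 143 CPM in WT and 114, 127 and 131 CPM in GFP. In GSTA4 it measured 28.8, 32.6 and 34.1 CPM, and in OSK 355, 393 and 493 CPM. The OSK libraries were all above, and the GSTA4 libraries all below, every library of the 2 control groups, which overlapped each other. Against GFP, LOX rose in OSK by 1.74 on the log2 scale (SE 0.127, 3.34-fold, edgeR quasi-likelihood test with Benjamini-Hochberg adjusted p = 4.98e-10). In GSTA4 it was lower than in GFP by a log2 difference of -1.96 (SE 0.14, 3.89-fold lower, no test).

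The 2 ORF lines therefore lay on either side of the controls for LOX. OSK exceeded GSTA4 by 3.70 on the log2 scale (SE 0.142, 13-fold, edgeR adjusted p = 1.17e-14). Against WT, LOX rose by 1.70 in OSK (SE 0.126, edgeR adjusted p = 5.52e-10) and fell by 2.00 in GSTA4 (SE 0.139, edgeR adjusted p = 5.27e-10), on the log2 scale. GFP and WT did not differ past the threshold: the log2 difference was -0.04 with a 95% interval of -0.30 to 0.23 (edgeR adjusted p = 0.871), and -0.22 without WT replicate 1 (edgeR adjusted p = 0.105).

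**Figure D1:**
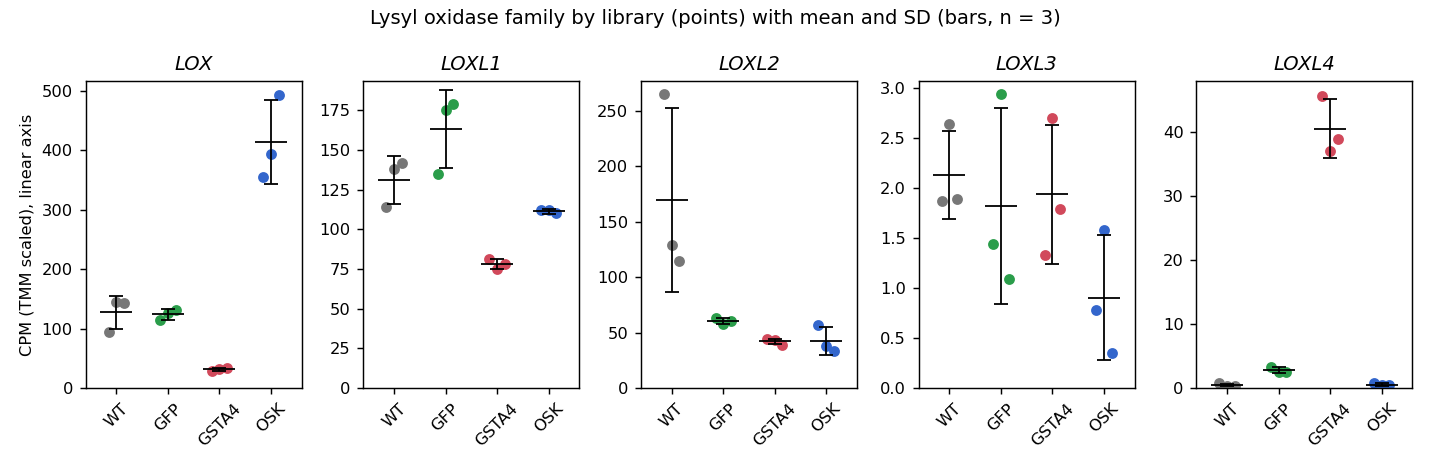
Level of each lysyl oxidase gene in the 12 libraries (points; CPM, linear axes that differ between panels) with the mean and SD of each group of 3 (bars). LOX is highest in OSK (355 to 493 CPM) and lowest in GSTA4 (28.8 to 34.1 CPM), whereas LOXL4 is highest in GSTA4 (37 to 45.7 CPM) and at most 3.35 CPM elsewhere.

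LOXL1, the paralog closest to LOX in layout and the one most tied to elastic fibres, varied over a narrow range. It measured 114, 138 and 142 CPM in WT and 135, 175 and 179 CPM in GFP. It measured 81.5, 75.2 and 78.1 CPM in GSTA4 and 112, 112 and 110 CPM in OSK. GSTA4 was lowest with no overlap with any other group, OSK lay between GSTA4 and the controls, and the 2 control groups overlapped. LOXL1 fell in OSK against GFP by 0.55 on the log2 scale (SE 0.0903, edgeR adjusted p = 4.01e-05). In GSTA4 the log2 difference from GFP was -1.06 (SE 0.0921, 2.09-fold lower, no test). OSK exceeded GSTA4 by 0.51 (SE 0.0926, edgeR adjusted p = 0.000113), and GSTA4 fell below WT by 0.74 (SE 0.0921, edgeR adjusted p = 1.97e-06), on the log2 scale.

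The differences of LOXL1 from WT in the other 2 lines were small and less firm. It rose in GFP by 0.32 on the log2 scale (SE 0.0896, edgeR adjusted p = 0.0153), and this call was lost without WT replicate 1, where the value was 0.22 with an adjusted p of 0.0615 (0.000764 to 0.083 over the alternatives). It was also lost without GFP replicate 2 or 3 and with only the 6 libraries compared. In OSK LOXL1 fell below WT by 0.24 on the log2 scale (SE 0.0905, edgeR adjusted p = 0.0384), a call lost under DESeq2 (adjusted p = 0.0662) and on leaving out any OSK library, WT replicate 2 or 3, or GSTA4 replicate 2 or 3 (0.00133 to 0.173 over the alternatives). LOXL1-AS1, the antisense transcript that shares the LOXL1 locus, averaged 39.9 ± 1.57 CPM in WT and 38.1 ± 0.734 CPM in GFP, then 17.4 ± 1.56 in GSTA4 and 26.3 ± 3.31 in OSK (SD, n = 3). It fell against GFP in both lines, by 1.13 in GSTA4 (SE 0.097, edgeR adjusted p = 1.5e-08) and by 0.54 in OSK (SE 0.0933, edgeR adjusted p = 7.68e-05), on the log2 scale.

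LOXL2, which crosslinks type IV collagen of basement membranes, was highest in WT. It measured 265, 129 and 115 CPM in WT and 62.8, 57.5 and 60.1 CPM in GFP. It measured 44, 43 and 39.2 CPM in GSTA4 and 57.2, 37.9 and 33.3 CPM in OSK. Every WT library was above every other library, WT replicate 1 by far the most, and OSK and GSTA4 overlapped. LOXL2 fell against WT by 1.50 in GFP (SE 0.218, edgeR adjusted p = 6.18e-05), by 2.01 in GSTA4 (SE 0.224, edgeR adjusted p = 5.03e-07) and by 1.99 in OSK (SE 0.224, edgeR adjusted p = 2.77e-07), on the log2 scale. Without WT replicate 1 these log2 values were -1.02, -1.53 and -1.51, with adjusted p of 9.74e-08, 3.73e-12 and 2.34e-12. TAGLN, an actin-binding marker of myofibroblasts, was at 51.1 CPM in that library and at 138 and 143 CPM in the other WT libraries. Of the fibroblast and myofibroblast markers that reached 1 CPM, ACTA2 was also lower there (5.79 against 10.5 and 9.79 CPM). PDGFRB was higher there (695 against 636 and 623 CPM).

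Among the ORF lines LOXL2 differed less than it did from WT. Every GFP library was above every GSTA4 and OSK library, by 57.5 against 57.2 CPM at the closest. The log2 difference of GSTA4 from GFP was -0.52 (SE 0.229, no test). That of OSK from GFP was -0.49, with a 95% interval of -0.97 to -0.02 and an edgeR adjusted p of 0.0843. This last value passed the threshold with the replicate number as a block (-0.53, adjusted p = 0.00477), without OSK replicate 1 (-0.75, adjusted p = 0.0204) and without WT replicate 1 (adjusted p = 0.000508). It also passed without WT replicate 3, with the 6 libraries compared alone and with no filter (1.87e-07 to 0.304 over the alternatives). OSK against GSTA4 gave 0.02, with an interval of -0.46 to 0.51 (edgeR adjusted p = 0.948).

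LOXL3, a paralog needed for palate and spine development in mice, had few reads in every library. It measured 1.87, 2.64 and 1.89 CPM in WT (30, 36 and 32 reads) and 1.44, 2.94 and 1.09 CPM in GFP (19, 41 and 16 reads). It measured 1.33, 2.7 and 1.79 CPM in GSTA4 (21, 36 and 26 reads) and 0.783, 1.58 and 0.352 CPM in OSK (11, 25 and 5 reads). OSK and WT did not overlap, and all neighbours in the order of group means overlapped. LOXL3 fell in OSK against WT by 1.20 on the log2 scale (SE 0.463, edgeR adjusted p = 0.0402), a call lost under DESeq2 (adjusted p = 0.0682) and without WT replicate 2 or 3, OSK replicate 1 or 3, or GSTA4 replicate 3 (0.0063 to 0.183 over the alternatives). Against GFP the OSK value was -0.98 (SE 0.474, edgeR adjusted p = 0.0981). It passed with the replicate number as a block (adjusted p = 0.0365) and without GFP replicate 3 (adjusted p = 0.0489) or OSK replicate 2 (adjusted p = 0.0202). The GSTA4 value against GFP was 0.08 (SE 0.435, no test). OSK against GSTA4 gave -1.06 (SE 0.47, edgeR adjusted p = 0.07), which passed with no filter, with only the 6 libraries compared, with the replicate number as a block (adjusted p = 0.0167) and without OSK replicate 2 (0.0136 to 0.276 over the alternatives). Against WT the values were -0.22 in GFP and -0.14 in GSTA4 (edgeR adjusted p = 0.763 and 0.827).

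LOXL4, a paralog that can oxidise collagen and whose roles are less well charted, ran opposite to LOX in the GSTA4 line. It measured 0.747, 0.367 and 0.413 CPM in WT (12, 5 and 7 reads) and 3.35, 2.58 and 2.51 CPM in GFP (44, 36 and 37 reads). It measured 45.7, 37 and 38.9 CPM in GSTA4 (720, 493 and 565 reads) and 0.783, 0.443 and 0.492 CPM in OSK (11, 7 and 7 reads). GSTA4 was far above every other group, GFP was above WT and OSK without overlap, and WT and OSK overlapped. These groups had been seen before LOXL4 was chosen, so its values with GSTA4 are descriptions: GSTA4 was 14.4-fold above GFP (log2 3.85, SE 0.166), 77.6-fold above WT and 70.4-fold above OSK.

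The contrasts of LOXL4 that leave GSTA4 out could be tested, although those with GFP share its libraries with the one that drew notice. LOXL4 rose in GFP against WT by 2.43 on the log2 scale (SE 0.29, 5.38-fold, edgeR adjusted p = 7e-06). It fell in OSK against GFP by 2.29 on the log2 scale (SE 0.288, 4.88-fold lower, edgeR adjusted p = 1.5e-06). OSK against WT gave 0.14, with a 95% interval of -0.69 to 0.97 (edgeR adjusted p = 0.806).

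**Figure D2:**
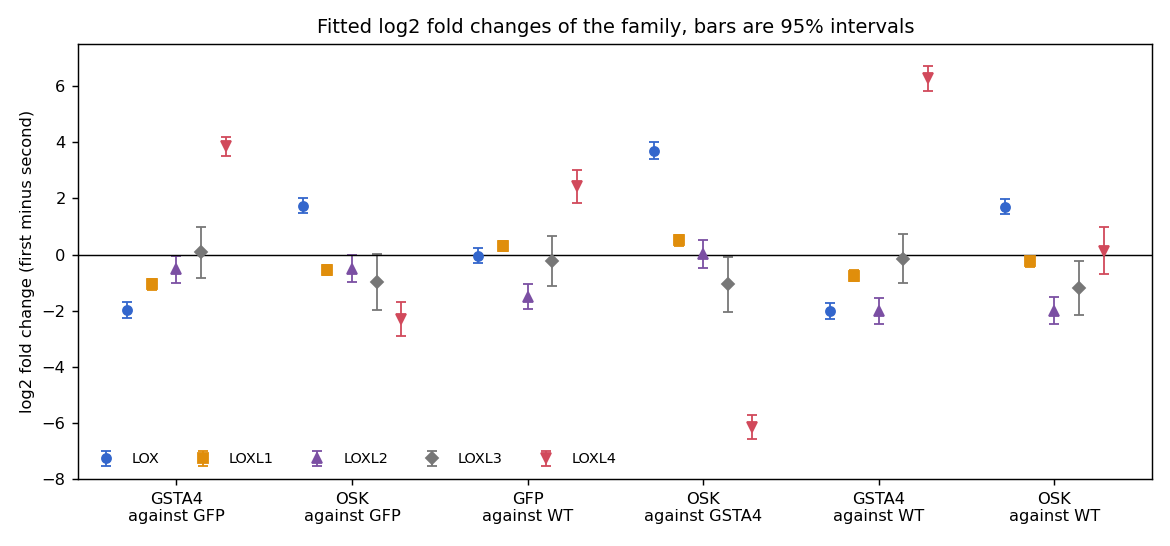
Fitted log2 fold change of each member in the 6 comparisons of groups (points; y axis, first group minus second), with 95% intervals (bars). LOX and LOXL4 sit on opposite sides of 0 in GSTA4 against GFP (-1.96 and 3.85) and in OSK against GFP (1.74 and -2.29), and LOXL2 is below 0 in each comparison with WT.

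Counts of members are read against all 15179 genes tested. In GSTA4 against GFP, 29.2% of all genes were past the adjusted p threshold of 0.05 (14.7% higher, 14.6% lower). There 42.3% of all genes had no overlap between the libraries of the 2 groups. Since this contrast was used in choosing the family, its members were not counted in it. In OSK against GFP, 1 member rose (LOX), 2 fell (LOXL1 and LOXL4) and 2 did not pass, where 45.9% of all genes passed (23.1% higher, 22.8% lower). There 4 of 5 members did not overlap, against 54.7% of all genes. In GFP against WT, 2 rose (LOXL1 and LOXL4) and 1 fell (LOXL2), and 2 did not overlap, where 22.2% of all genes passed (11% higher, 11.2% lower) and 34.6% did not overlap. Of the 4 members tested in GSTA4 against WT, LOX, LOXL1 and LOXL2 fell, where 38.6% of all genes passed (19.7% higher, 19% lower) and 49% did not overlap. In OSK against WT, 1 rose and 3 fell, and 4 of 5 did not overlap, where 45.4% of all genes passed (22.7% in each direction) and 53.5% did not overlap. In OSK against GSTA4, LOX and LOXL1 rose, where 47.8% of all genes passed (24.1% higher, 23.8% lower) and 58% did not overlap. Scaling by library size alone left 39.8% of the OSK against GFP calls higher, against 50.4% with TMM, and it turned no called member.

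Levels were compared between members only per kilobase (kb) of exonic length. On that scale the family summed to 89.3 ± 5.33 CPM per kb in WT and 78.9 ± 7.89 in GFP, to 46.2 ± 1.72 with GSTA4, and to 113 ± 10.5 with OSK (SD, n = 3). GSTA4 libraries (44.85 to 48.12) lay below, and OSK libraries (105.4 to 125) above, the WT and GFP libraries (69.88 to 95.41). LOXL1 was the largest share in GFP (56.6% ± 3.06) and GSTA4 (46.6% ± 0.503), and LOX in OSK (65.7% ± 5.17). In WT, LOXL1 held 40.7% ± 6.81, LOXL2 32.7% ± 13.9 and LOX 26% ± 6.99, with SDs widened by replicate 1. LOX held 28.4% ± 0.907 in GFP and 12.5% ± 1.46 in GSTA4. LOXL4 held 24% ± 1.78 in GSTA4, next to 0.994% in GFP, 0.154% in WT and 0.141% in OSK. In the GSTA4 libraries LOXL4, at 11.1 CPM per kb, was thus above LOX, at 5.74, while in GFP it was at 0.77 and LOX at 22.3. LOXL3 held under 1% in every group. Shares come from a sum that the rise or fall of 1 member moves for all.

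**Figure D3:**
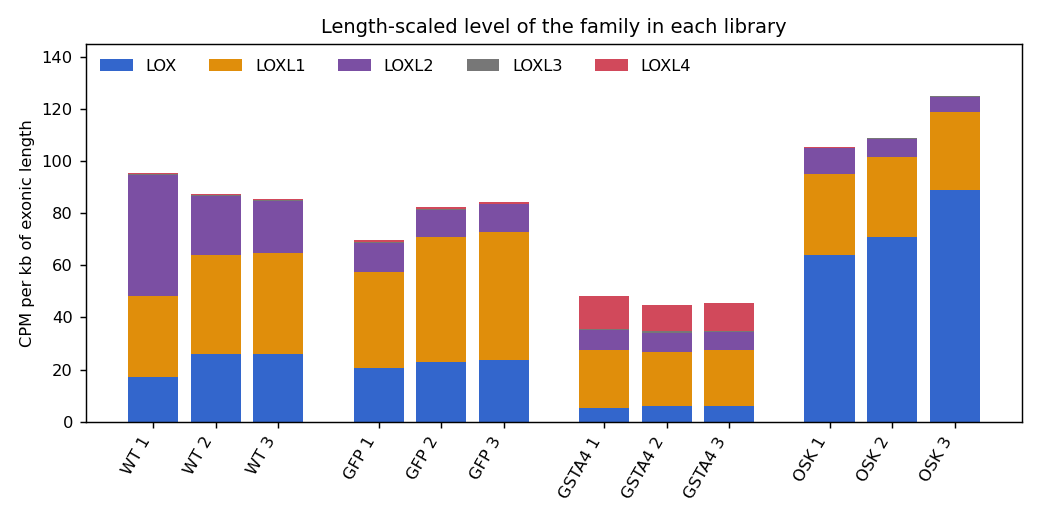
Length-scaled level of the 5 members stacked in each library (y axis, CPM per kb of exonic length). The stack is shortest in the 3 GSTA4 libraries (44.85 to 48.12), where LOXL4 forms a visible layer, and tallest in OSK (105.4 to 125), where LOX is the largest layer.

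The other genes of the pathway were described from 8 lists of 103 genes, chosen with earlier results of these data known. Of these, 102 were in the table and 90 were tested. In GSTA4 against GFP 20 rose and 30 fell (55.6% called, against 29.2% of all genes), with a median log2 difference of -0.0859, against 0.00824 over all genes. In OSK against GFP 27 rose and 37 fell (71.1% called, against 45.9%), with a median of -0.0773 against -0.019. In GFP against WT 12 rose and 20 fell (35.6% called, against 22.2%), with a median of -0.0642 against 0.00979. That last count dropped to 17 without GFP replicate 2.

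Genes that process the enzymes or hold them on their substrates moved apart. Of 13 tested maturation and scaffold genes, 3 rose and 4 fell in GSTA4 against GFP (53.8% called, against 29.2% of all genes, median log2 -0.156). In OSK 3 rose and 6 fell (69.2% called, against 45.9%, median -0.597). BMP1, the protease that releases active LOX, averaged 137.3 ± 5.69 CPM in GFP, 129.8 ± 8.02 in GSTA4 and 463 ± 22.8 in OSK (SD, n = 3). It rose in OSK by 1.75 on the log2 scale (SE 0.0659, edgeR adjusted p = 1.37e-14), and its GSTA4 value was -0.08 (edgeR adjusted p = 0.394). TLL1, a related protease, rose in GSTA4 by 2.45 (SE 0.389, edgeR adjusted p = 6.45e-05), and TLL2 rose in OSK by 1.94 (SE 0.411, edgeR adjusted p = 0.000621), both from under 1 CPM in GFP. FBLN5, which tethers LOXL1 and elastin, averaged 74.8 ± 12.3 CPM in GFP, 10.8 ± 1.48 in GSTA4 and 18.2 ± 1.56 in OSK. It fell by 2.79 in GSTA4 (SE 0.183, edgeR adjusted p = 2.58e-10) and by 2.04 in OSK (SE 0.172, edgeR adjusted p = 4.62e-09). ADAMTS3, a procollagen protease, fell in GSTA4 by 1.41 (SE 0.145, edgeR adjusted p = 2.14e-07). EFEMP2 (fibulin-4), which brings LOX to elastin, rose in GSTA4 by 0.24 (SE 0.0804, edgeR adjusted p = 0.0285), a call lost without GFP replicate 1 (0.14, adjusted p = 0.177) or any 1 GSTA4 library (adjusted p = 0.0517, 0.076 and 0.0815). FN1, the fibronectin scaffold for BMP1 and LOX, fell in OSK by 0.60 (SE 0.126, edgeR adjusted p = 0.000579) and had a GSTA4 value of -0.16 (edgeR adjusted p = 0.384, and 0.0403 with only the 6 libraries compared).

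Copper supply genes deliver the cofactor. Of 10 tested, 3 rose and none fell in GSTA4 against GFP (30% called, against 29.2% of all genes; median log2 -0.0305). These were COX17 (0.40), ATOX1 (0.32) and STEAP3 (0.24), and each call was lost under DESeq2, at adjusted p of 0.0582, 0.0707 and 0.0809, and without GFP replicate 1, at 0.0954, 0.182 and 0.168. ATP7A, the pump that delivers copper to secreted enzymes, averaged 19.2 ± 0.795 CPM in GFP, 16.0 ± 1.41 in GSTA4 and 21.4 ± 1.94 in OSK, and passed in neither contrast (edgeR adjusted p = 0.0694 and 0.226). In OSK 4 rose and 2 fell (60% called, against 45.9%; median log2 0.181), led by STEAP2, a metalloreductase (1.13, edgeR adjusted p = 4.23e-05), MEMO1 (-0.72, edgeR adjusted p = 0.00141) and ATP7B (-0.69, edgeR adjusted p = 3.03e-06).

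Substrates were lower in GSTA4 more often than higher. Of 14 collagen and elastin genes 9 were tested, and 1 rose and 5 fell in GSTA4 (66.7% called, against 29.2% of all genes, median log2 -0.441). In OSK 2 rose and 3 fell (55.6% called, against 45.9%, median -0.0562). COL1A1, the main chain of type I collagen, averaged 82.6 ± 2.13 CPM in GFP, 4.53 ± 1.87 in GSTA4 and 20.9 ± 4.52 in OSK. It fell by 4.19 in GSTA4 (SE 0.204, edgeR adjusted p = 2.97e-12) and by 1.98 in OSK (SE 0.165, edgeR adjusted p = 3.87e-09). Its partner chain COL1A2 had at most 9 reads in any library and was not tested. ELN (elastin) fell in GSTA4 by 2.43 (SE 0.25, edgeR adjusted p = 2.18e-07), from 41.9 ± 1.45 to 7.83 ± 2.44 CPM. In OSK it stood at 29.7 ± 0.266 CPM and in WT at 25.6 ± 11.4. The OSK log2 value against GFP was -0.50 (edgeR adjusted p = 0.0657), which passed without WT replicate 1 (adjusted p = 0.000387). It also passed with library size alone, no filter, the replicate block and only the 6 libraries compared. COL5A1 fell in GSTA4 by 1.38 (SE 0.149, edgeR adjusted p = 4.77e-07) and rose in OSK by 1.24 (SE 0.129, edgeR adjusted p = 1.13e-07). COL5A2 rose in both lines, by 0.72 in GSTA4 (edgeR adjusted p = 3.34e-05) and by 1.88 in OSK (edgeR adjusted p = 1.17e-11). COL4A1 of basement membranes fell in OSK by 1.32 (SE 0.167, edgeR adjusted p = 1.68e-06). It averaged 756.1 CPM in GFP and 303.7 in OSK, next to 279.5 in WT.

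Elastic fibre genes had 2 rises and 5 falls among 12 tested in GSTA4 (58.3% called, against 29.2% of all genes, median log2 -0.428). In OSK they had 3 rises and 6 falls (75% called, against 45.9%, median -0.319). LTBP2, a microfibril-associated protein, fell by 3.11 in GSTA4 (SE 0.193, edgeR adjusted p = 1.07e-10) and by 1.74 in OSK (SE 0.18, edgeR adjusted p = 9.35e-08). MFAP4 fell in GSTA4 by 3.5 (SE 0.315, edgeR adjusted p = 3.05e-08). MFAP5 had 7, 18 and 18 reads in GFP and 0, 1 and 0 in GSTA4, and 52, 68 and 81 in OSK, where it rose by 2.15 (SE 0.417, edgeR adjusted p = 0.000256). FBLN1 fell in OSK by 1.55 (SE 0.399, edgeR adjusted p = 0.00333).

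The hydroxylases and chaperones that prepare collagen for crosslinking had 3 rises and 6 falls among 18 tested in GSTA4 (50% called, against 29.2% of all genes, median log2 0.00403). In OSK they had 9 rises and 5 falls (77.8% called, against 45.9%, median 0.209). P4HA1, a prolyl hydroxylase subunit, fell in GSTA4 by 0.77 (SE 0.101, edgeR adjusted p = 5.96e-06), and P4HA3 by 0.71 (edgeR adjusted p = 0.0424), which was lost under DESeq2 (adjusted p = 0.0852), with no filter and without GFP replicate 1 or 2 or any 1 GSTA4 library (adjusted p up to 0.15). In OSK the prolyl hydroxylase P3H3 rose by 0.89 (edgeR adjusted p = 4.15e-07), P4HB, the shared beta subunit, rose by 0.83 (edgeR adjusted p = 6.26e-09) and the collagen galactosyltransferase COLGALT2 fell by 1.80 (edgeR adjusted p = 0.00175). PLOD2, the telopeptide lysyl hydroxylase, averaged 125.4 ± 6.95 CPM in GFP and 88.0 ± 0.868 in GSTA4, a fall of 0.51 on the log2 scale (SE 0.1, edgeR adjusted p = 0.000575). In OSK it gave 0.05 (edgeR adjusted p = 0.709). PLOD3 fell in GSTA4 by 0.25 (edgeR adjusted p = 0.0164), a call lost without GFP replicate 2 (adjusted p = 0.0953) or GSTA4 replicate 2 or 3 (adjusted p = 0.0976 and 0.0669). It rose in OSK by 0.76 (SE 0.0743, edgeR adjusted p = 4.52e-08). PLOD1 had a GSTA4 value of 0.00 (edgeR adjusted p = 0.984) and rose in OSK by 0.20 (edgeR adjusted p = 0.026), a call lost with library size scaling alone (adjusted p = 0.119) and without GFP replicate 1 (0.13, adjusted p = 0.147) or OSK replicate 3 (0.15).

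Other crosslinking enzymes and amine oxidases fell more than they rose. In GSTA4 1 of 7 tested rose and 4 fell (71.4% called, against 29.2% of all genes, median log2 -0.654). In OSK none rose and 5 fell (71.4% called, against 45.9%, median -1.02). TGM2, a transglutaminase, fell in GSTA4 by 2.94 (SE 0.384, edgeR adjusted p = 5.96e-06) and in OSK by 1.05 (edgeR adjusted p = 0.00904), and its relative TGM1 fell in GSTA4 by 1.88 (edgeR adjusted p = 2.17e-07). MAOB fell in OSK by 0.78 (edgeR adjusted p = 0.000359). MAOA, a flavin-dependent mitochondrial amine oxidase that needs no copper, averaged 16.4 ± 1.91 CPM in GFP, 103.8 ± 3.85 in GSTA4 and 6.28 ± 0.401 in OSK. It rose in GSTA4 by 2.66 (SE 0.0873, edgeR adjusted p = 9.03e-15) and fell in OSK by 1.39 (SE 0.109, edgeR adjusted p = 1.55e-09), the same order of these 3 groups as LOXL4.

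Genes known to act upstream of the family went both ways, with 7 rises and 5 falls among 20 tested in GSTA4 (60% called, against 29.2% of all genes, median log2 0.111). In OSK they had 6 rises and 9 falls (75% called, against 45.9%, median 0.198). TGFB2, a TGF-beta ligand, rose in GSTA4 by 1.12 (SE 0.0763, edgeR adjusted p = 4.78e-10) and fell in OSK by 0.48 (edgeR adjusted p = 3.59e-05). SMAD7, an inhibitor that TGF-beta signalling induces, fell in GSTA4 by 1.21 (SE 0.0652, edgeR adjusted p = 1.25e-11) and in OSK by 0.77 (edgeR adjusted p = 3.7e-09). HIF1A, a transcription factor stabilised in hypoxia, fell in GSTA4 by 0.64 (SE 0.0929, edgeR adjusted p = 2.39e-05), from 444 ± 24.6 to 285.6 ± 7.08 CPM, and averaged 280.7 ± 6.43 CPM in OSK. ZEB1, a transcription factor of mesenchymal cells, rose in OSK by 1.49 (edgeR adjusted p = 6.91e-10), and the receptor TGFBR2 by 0.69 (edgeR adjusted p = 1.12e-06). SNAI2 had no read in any of the 12 libraries and SNAI1 at most 5.

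Between the 2 controls, GFP against WT, the substrates changed most often by count: 3 of 9 rose and 5 fell (88.9% called, against 22.2% of all genes, median log2 -0.458). COL4A1 and COL4A2, the basement membrane chains, rose in GFP by 1.44 (SE 0.168, edgeR adjusted p = 5.62e-06) and 1.07 (edgeR adjusted p = 6e-05), and COL27A1 fell by 0.76 (edgeR adjusted p = 0.016), a call lost without WT replicate 1 (adjusted p = 0.0619) or GFP replicate 2 (adjusted p = 0.106). ELN rose by 0.72 and COL1A1 fell by 0.57 (edgeR adjusted p = 0.0224 and 0.00875), both lost under DESeq2 (adjusted p = 0.155 and 0.12), ELN also with only the 6 libraries compared and without GFP replicate 2 or 3 (adjusted p = 0.0556, 0.0658 and 0.0599). Of maturation and scaffold genes 2 rose and 3 fell (38.5% called, against 22.2%), with FBLN5 up by 1.20 (edgeR adjusted p = 2.78e-05) and BMP1 down by a log2 value of -0.36 (edgeR adjusted p = 0.00053). Hydroxylation genes had 3 rises and 4 falls (38.9% called, against 22.2%), led by COLGALT2 (1.35, edgeR adjusted p = 0.0217), P3H2 (-0.71, edgeR adjusted p = 0.000229) and FKBP10 (0.44, edgeR adjusted p = 0.0122). The COLGALT2 call was lost without WT replicate 1 or 3 or GFP replicate 2 (adjusted p = 0.106, 0.0574 and 0.128), and the FKBP10 call without GFP replicate 2 (adjusted p = 0.0824).

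Of 10 copper genes (20% called, against 22.2% of all genes) STEAP2 rose (0.78, edgeR adjusted p = 0.0112) and STEAP3 fell (-0.29, edgeR adjusted p = 0.0222). Both calls were lost without WT replicate 1 (adjusted p = 0.0596 and 0.0703) and without GFP replicate 2 (adjusted p = 0.0644 and 0.0529), STEAP3 also without GFP replicate 1. Of 12 elastic fibre genes (8.33% called, against 22.2%) none rose and EMILIN2 fell, by 0.94 (SE 0.248, edgeR adjusted p = 0.00973), a call lost without WT replicate 2 (-0.68, adjusted p = 0.0675). Of other crosslinking genes 2 rose and 1 fell (42.9% called, against 22.2%), with MAOB up by 0.65 (edgeR adjusted p = 0.0048). Of upstream regulators 1 rose and 5 fell (30% called, against 22.2%, median log2 -0.125), with log2 values of -0.71 for TGFB1, -0.69 for EPAS1 and -0.54 for HIF1A (edgeR adjusted p = 7.63e-05, 0.000107 and 0.000289).

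**Figure D4:**
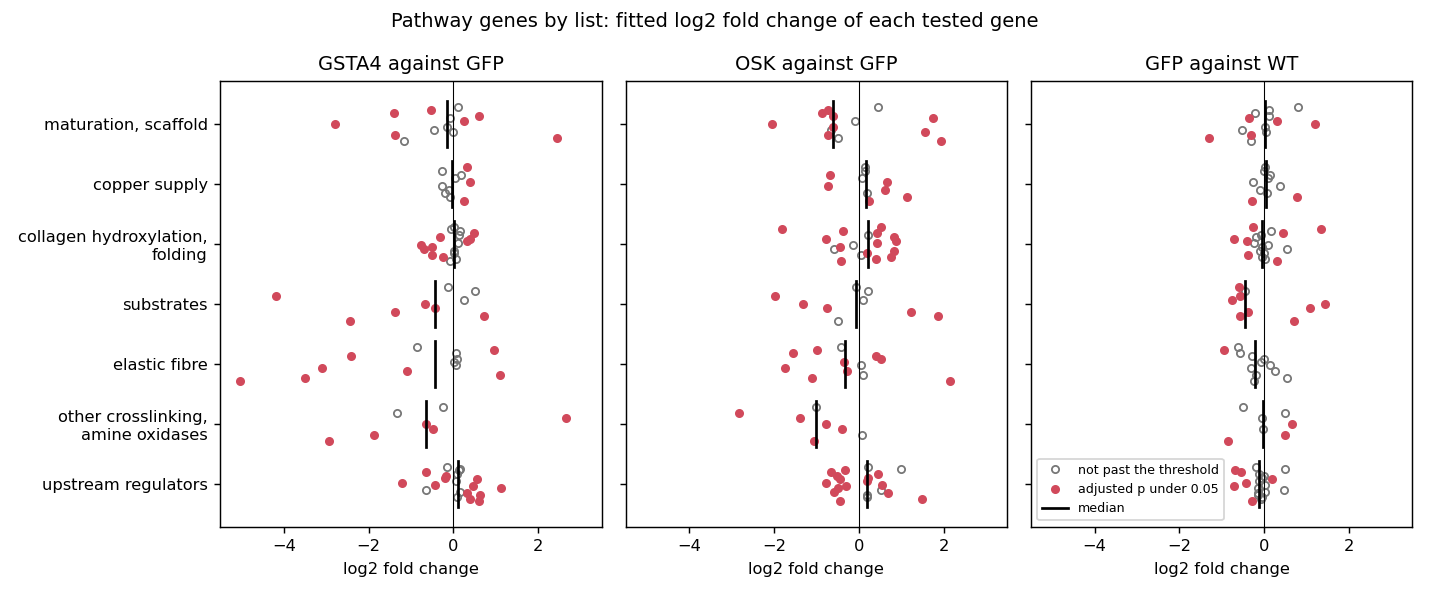
Fitted log2 fold change (x axis) of each tested pathway gene by list (rows) in 3 comparisons, filled where the edgeR adjusted p was under 0.05, with the list median as a bar. Substrate, elastic fibre and other crosslinking lists have their medians below 0 in GSTA4 against GFP (-0.441, -0.428 and -0.654), and the spread is narrower in GFP against WT.

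Summed levels of fibroblast, RPE and endothelial markers differed between these groups. The summed level of 8 fibroblast and myofibroblast markers, of which 3 reached 1 CPM, was 752 to 784 CPM in WT and 747 to 864 in GFP libraries, 555 to 593 with GSTA4 and 356 to 412 with OSK. LUM, a defining fibroblast gene, had 0 reads in every library. Most of that sum was PDGFRB, at 660 CPM in GFP, 539.4 in GSTA4 and 342.7 in OSK. The contractile markers differed in direction: TAGLN averaged 126 ± 21.5 CPM in GFP, 10.8 ± 2.73 in GSTA4 and 27.9 ± 3.1 in OSK, whereas ACTA2 averaged 17.8, 23.9 and 10.5 CPM. The 16 RPE markers summed to 2420 to 2670 CPM in WT and 2190 to 2530 in GFP libraries, 1580 to 1650 with GSTA4 and 1410 to 1470 with OSK. Single members of that list went other ways: LRAT averaged 3.89 CPM in GFP and 14.3 in GSTA4, RDH5 averaged 4.96 in GFP and 13.5 in OSK, and SERPINF1 averaged 151.8 in GFP and 149.7 in GSTA4. The 6 endothelial markers, mostly KDR, summed to 71 to 94.5 CPM in WT and 58.7 to 73.6 in GFP libraries, 36.5 to 38.7 with GSTA4 and 23.7 to 26.6 with OSK. None of 6 immune markers reached 1 CPM. Mitochondrial genes took 5.99 to 6.06% of reads in WT and 6.05 to 6.54% in GFP libraries, 7.55 to 7.82% with GSTA4 and 6.81 to 6.89% with OSK. The part of these shifts in the values above was not tested, and in bulk RNA fewer cells of a type and less RNA per cell cannot be told apart.

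Genes whose pattern was most like each member were found as the smallest root mean square (RMS) difference of centred log2 CPM over the 12 libraries, among 13684 tested genes. KCNK1, a potassium channel gene (RMS 0.232), was closest to LOX and averaged 26.6 CPM in WT, 31.6 in GFP libraries, 7.63 with GSTA4 and 77.6 with OSK. IGFBP3, which binds insulin-like growth factors, was also near it (0.313). COL18A1, a basement membrane collagen gene, was closest to LOXL1 (0.0912), averaging 1560, 1710, 902 and 1220 CPM in that order, ahead of NAV1 (0.117) and SUSD6 (0.123). ZBED6CL (0.202), SLC5A3 (0.203) and MYO7A (0.233) were closest to LOXL2, and all were highest in WT.

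LOXL3, with few reads, and LOXL4 had less close neighbours. The RMS difference is not scaled to a gene's range, and LOXL4 ran from -2.41 to 4.10 in centred log2 CPM. SMIM6 (0.341), DRD4 (0.354) and DPY19L2 (0.363) were nearest to LOXL3, the first 2 of them also near 1 CPM. GRIA3, a glutamate receptor subunit (0.906), RALGPS2-AS1 (0.977) and GPC3, a cell surface glypican (0.986), were nearest to LOXL4. GPC3 averaged 51.5 CPM with GSTA4, 4.93 with GFP, 4.16 in WT and 2.45 with OSK. Between members, the closest pair was LOXL1 and LOXL2 (0.795) and the most distant LOX and LOXL4 (3.65).

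**Figure D5:**
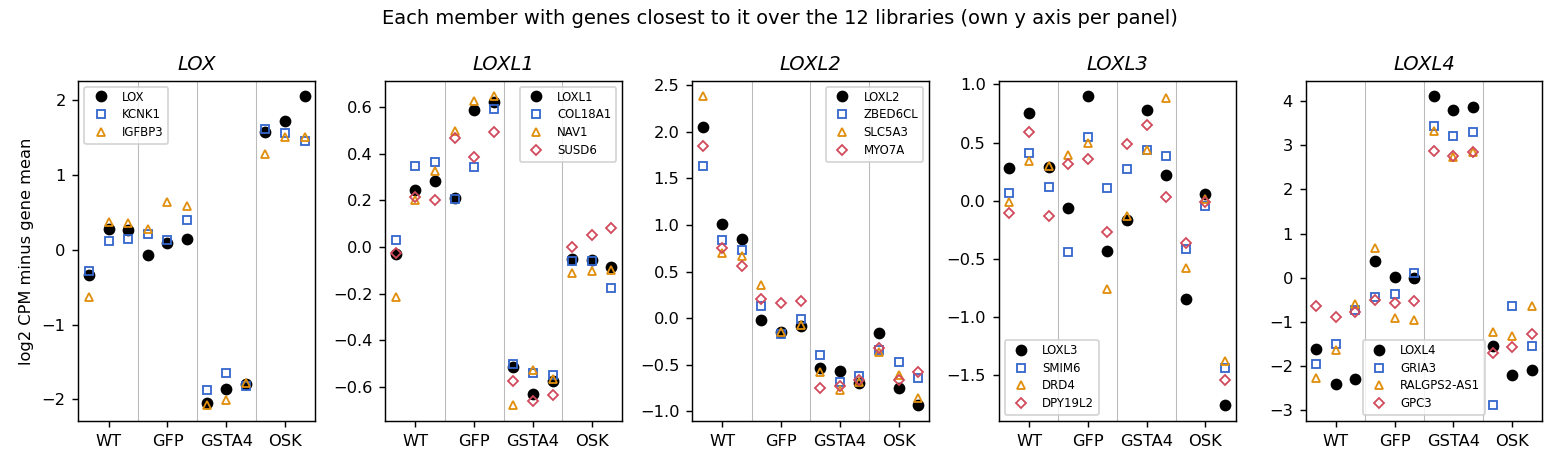
Log2 CPM minus each gene's own mean (y axis, own scale per panel) for each member (filled circles) and genes nearest to it (open symbols; 2 for LOX and 3 for each other member) in the 12 libraries. The nearest gene lies at an RMS difference of 0.0912 for LOXL1 and of 0.906 for LOXL4.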

How the data were processed

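The authors deposited a table of raw read counts per gene, with 3 libraries for each of WT, GFP, GSTA4 and OSK. STAR 2.7.1a and featureCounts 1.6.2 are named in the submitters' processing notes. GRCh38 is listed there too, while the annotation release and strand setting are not given in the sources used here. The 20014 lines without a symbol held 0.485 to 0.822% of reads per library and were left out of library sizes. All 12 libraries entered 1 fit with edgeR 4.0.16 (R 4.3.3): TMM scaling, filterByExpr, the quasi-likelihood test and Benjamini-Hochberg adjustment over 15179 genes, with a threshold of 0.05. The common biological coefficient of variation was 7.91%, with 8 residual degrees of freedom. Depth was 12526826 to 16940870 reads, and precision for genes near the floor of 3 reads is low.

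The members, lists, naming rule and contrasts were chosen with earlier results of these data known. Named were all members, 12 pathway genes, up to 3 genes per list and contrast with at least 1 CPM, no overlap between groups and the largest change, and 3 genes nearest to each member, of which 1 near LOX is not reported here. TAGLN, LUM, SNAI1, SNAI2 and the other cell type markers named singly were picked after their values were seen. Alternatives were RLE scaling, library size alone, other filters, DESeq2 1.42.0, a replicate block, the compared libraries alone and leaving out each library. The fitting script was tested on simulated data.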

Additional observations from a re-analysis of the deposited data

How the results depend on the processing

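LOX in every tested contrast with GSTA4 or OSK, LOXL1 in OSK against GFP, OSK against GSTA4 and GSTA4 against WT, LOXL2 in each contrast with WT, and LOXL4 in OSK against GFP and GFP against WT kept their direction and call under every alternative run. Family calls in OSK against GFP numbered 3, and 5 with the replicate block, where LOXL2 (-0.53, edgeR adjusted p = 0.00477) and LOXL3 (-1.01, edgeR adjusted p = 0.0365) also passed. The labels do not say that a number marks a shared source, so the samples were not taken as paired. Of 18 same-numbered pairs, 3 had a correlation of deviations over 0.1 (range -0.0193 to 0.153, against -0.0982 to 0.077 for other pairs). The own number was highest in 17 of 36 comparisons, where 12 would follow if numbers carried nothing. In all 4 groups replicate 1 was lowest for LOX and highest for LOXL2 and LOXL4, and replicate 2 highest for LOXL3; its source was not tested. Family calls in OSK against WT numbered 4, 2 under DESeq2, and 2 to 4 on leaving out each library. Pathway calls in GFP against WT numbered 32, and 17 to 30 on leaving out each library. The cause was not tested.

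Some values that were near 0 and not called changed sign. PLOD1 in GSTA4 against GFP was -0.0030 with RLE scaling, -0.0051 with library size alone, -0.014 with a minimum mean of 1 CPM, -0.013 with only the 6 libraries compared, -0.0011 under DESeq2, and -0.066 to 0.047 on leaving out each library. PLOD2 in OSK against GFP was -0.022 with library size alone. PLOD1 in GFP against WT was 0.0014 with the 1 CPM minimum. LOXL2 in OSK against GSTA4 was -0.041 with library size alone and -0.0076 with the replicate block. On leaving out each library, values ran from -0.22 to 0.18 for that LOXL2 result, and in GFP against WT from -0.18 to 0.20 for FN1, -0.22 to 0.055 for LOX, -0.055 to 0.024 for ATP7A, -0.062 to 0.058 for PLOD1, -0.11 to 0.029 for PLOD3 and -0.75 to 0.055 for LOXL3. They ran from -0.44 to 0.078 for LOXL3 in GSTA4 against WT and from -0.13 to 0.52 for LOXL4 in OSK against WT. LOXL3 in GSTA4 against GFP, described without a test, ran from -0.22 to 0.60 over all alternatives. The cause was not tested. Reads limit LOXL3 everywhere and LOXL4 in WT and OSK.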

Other observations

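The genes that share exons with members were looked at after the members' values were seen. SRFBP1, beside LOX, averaged 12.4 CPM in WT, 15.5 with GFP, 12.6 with GSTA4 and 12.6 with OSK, and passed the edgeR threshold in none of the 6 contrasts, including those in which LOX passed. HTRA2, beside LOXL3, averaged 30.8, 27.6, 36.8 and 27.4 CPM in the same order and rose in GSTA4 against GFP by 0.41 on the log2 scale (edgeR adjusted p = 0.00228). DOK1, on the other side of LOXL3, averaged 23.5, 22.5, 27.9 and 16.0 CPM and fell in OSK against GFP by 0.49 on the log2 scale (edgeR adjusted p = 0.00195). ENTPD4, beside LOXL2, averaged 133 CPM in WT, 140 with GFP, 161 with GSTA4 and 137 with OSK, without the high level of LOXL2 in WT.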
